A study of Mus musculus with 2 samples.

Results

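The EGF family is described here through 9 genes chosen by name from the 18595 genes of a single-cell expression table of the mouse esophagus. The 6 ligands are Epgn, Ereg, Areg, Hbegf, Tgfa and Btc, and the 3 receptors are Egfr, Erbb2 and Erbb3. All 9 were present in the table, and each was followed through the 19 cell clusters that the authors numbered in both libraries. The Keap1 cKO library came from mice that carry K5CreERT2, a tamoxifen-inducible Cre recombinase driven by the keratin 5 promoter, together with the floxB allele on both copies of Keap1. The control library came from mice with both floxB copies and, as labelled, no Cre transgene, so the floxed allele is shared by both. Keap1 encodes the adaptor that sends the transcription factor NRF2 for degradation, and the comparison asks what differs in the esophagus when it is removed from cells with an active keratin 5 promoter. Both libraries were made from hybrids of C57BL/6J and BALB/c, from esophagi stripped of muscle. The sources used here do not give the age of the mice, the number of animals per library, the exons flanked in floxB, or when tamoxifen was given and to which mice.

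Each genotype had 1 library, so no test was possible and every interval below covers counting error only. The Keap1 cKO library held 2381 cells with 26036522 UMIs (molecules counted by their tags), and the control library held 2472 cells with 30501227 UMIs. Cells annotated by the authors as epithelial numbered 422 in the Keap1 cKO library, with a median of 5072.5 UMIs, and 848 in the control library, with a median of 17667 UMIs. Keap1 itself stood at 44.5 CPM in Keap1 cKO epithelial cells and 69.8 CPM in control epithelial cells. Because the deleted exons are not given, these 3′ tags may lie outside them and do not check the deletion. Only 5 cell barcodes were shared by the libraries.

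EGF family ligands are made as membrane-bound precursors that proteases cut loose, and they bind receptors on the same or neighbouring cells. Amphiregulin, epigen and transforming growth factor alpha bind EGFR, while epiregulin, betacellulin and heparin-binding EGF-like growth factor also bind ERBB4. ERBB2 has no known ligand of its own and ERBB3 has a weak kinase, and both signal by pairing with another receptor. In stratified epithelia the family is known for its part in keratinocyte growth, migration and wound repair.

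Levels are given as UMIs per 1000000 UMIs of a cluster (CPM), with an exact 95% Poisson interval where it is named. The 3′ tags are captured with a different efficiency for each gene, so levels are compared between clusters and libraries for 1 gene at a time and not between genes. Differences are log2 ratios of CPM, Keap1 cKO over control, with an exact 95% interval from the counts. A gene is counted as higher or lower when its ratio passed 1.5-fold with at least 20 UMIs over both libraries. That fold describes the size of a difference and is not a significance call.

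In epithelial cells as a whole, Epgn, Ereg and Areg were the ligands that stood furthest above the control, Btc was higher by less, and Egfr was the receptor that was lower. Of the 9 genes, 4 passed 1.5-fold upward (Epgn, Ereg, Areg and Btc), where 17.5% of the 12638 genes with enough UMIs did so. One of the 9, Egfr, passed 1.5-fold downward, where 15.8% of all such genes did. The median log2 ratio of the 9 genes was 0.47, beside -0.02 over all genes. The 9 genes were chosen with earlier results of these data known, so these comparisons with all genes are descriptions only. The order of the log2 ratios, from high to low, was Epgn, Ereg, Areg, Btc, Tgfa, Hbegf, Erbb2, Erbb3 and Egfr, and the intervals of neighbours in that order overlapped in each case except between Areg and Btc and between Erbb3 and Egfr.

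**Figure D1:**
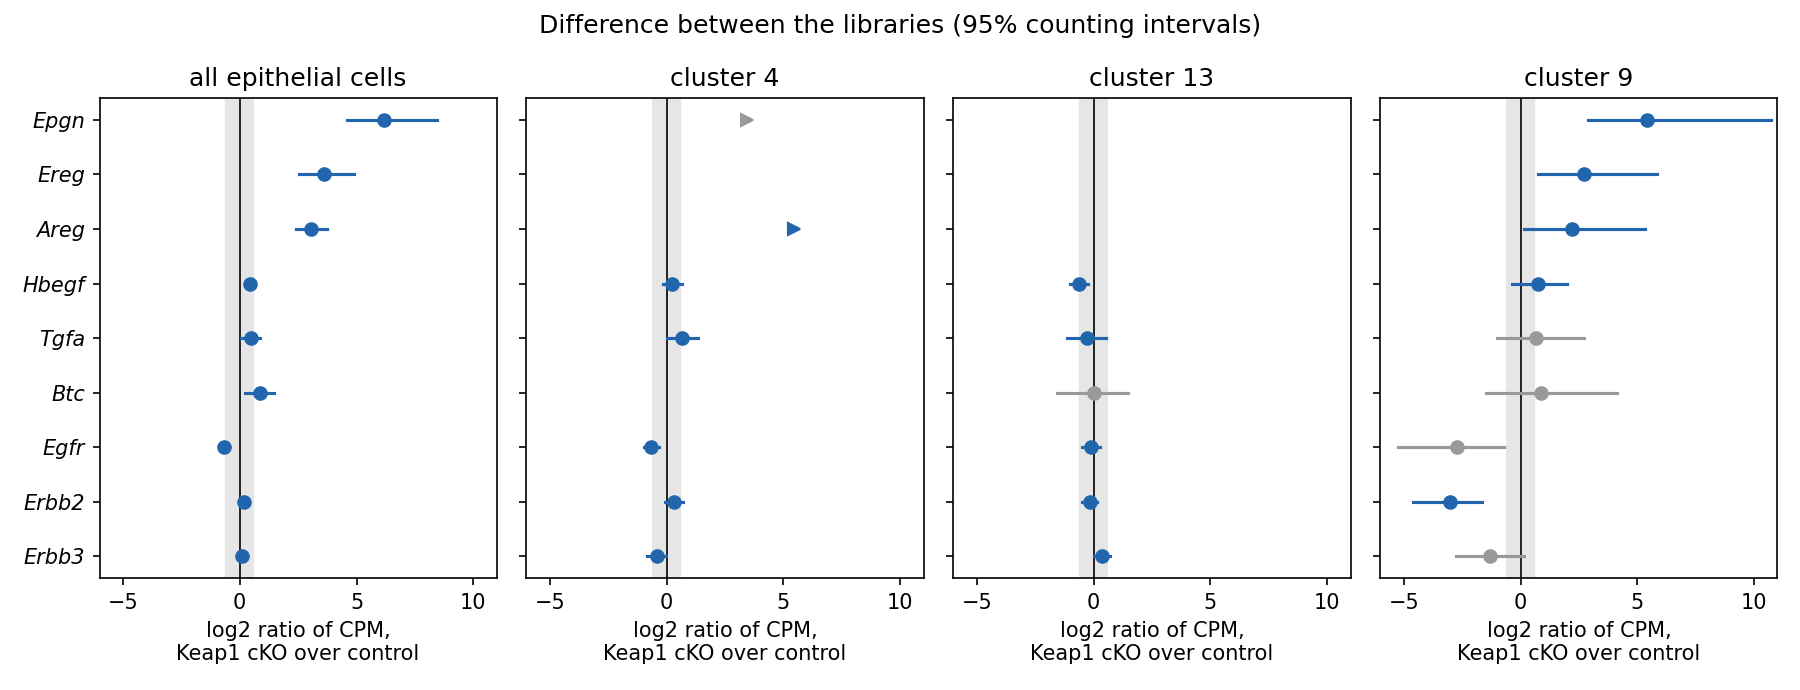
Log2 ratio of CPM, Keap1 cKO over control, for each of the 9 genes in all epithelial cells and in clusters 4, 13 and 9. Points are ratios with 95% counting intervals, right-pointing triangles are lower bounds for genes with 0 control UMIs, grey marks genes with under 20 UMIs over both libraries, genes with under 10 are left out, and the shaded band is 1.5-fold either way. Epgn lies at 6.16 in all epithelial cells and at 5.40 in cluster 9, while Erbb2 lies at -3.01 in cluster 9 and near 0 in clusters 4 and 13.

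Epgn, which encodes epigen, had 116 UMIs (15.6 CPM) in Keap1 cKO epithelial cells and 3 UMIs (0.218 CPM) in control epithelial cells. The log2 ratio was 6.16 (4.58 to 8.46), or 71.4-fold. The gene was close to silent in the control library, where its 5 UMIs were spread over 5 clusters. In the Keap1 cKO library 74.4% of its 125 UMIs lay in 1 cluster, cluster 9. That cluster was annotated as epithelial and led by Slpi, Lce3c and Sprr2d, which encode a protease inhibitor and proteins of the cornified envelope.

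Cluster 9 held 140 Keap1 cKO cells and 114 control cells. Epgn had 93 UMIs there in the Keap1 cKO library (95.3 CPM, interval 76.9 to 116.8) and 1 UMI in the control library (2.25 CPM, interval 0.0571 to 12.6), a log2 ratio of 5.40 (2.89 to 10.72). The UMIs came from 26 of 140 Keap1 cKO cells, with at most 19 in 1 cell, and from 1 of 114 control cells. The signal was therefore spread over many cells, and without the cell with most Epgn UMIs in each library the log2 ratio was still at least 3.51. Erythrocytes of cluster 7 should lack the gene. There Epgn was found in 0 of 120 Keap1 cKO cells at a median of 10271.5 UMIs, which allows a share of up to 2.50%, and in 0 of 178 control cells at a median of 10831 UMIs, which allows up to 1.69%. Here and below, what a count of 0 allows is the value at 3 counts. It is not the upper end of an exact 95% interval, which lies higher. When every cell was thinned to 1000 UMIs, Epgn was found in 10 of 117 Keap1 cKO cells and in 0 of 69 control cells of cluster 9, which allows up to 4.35% of control cells with a UMI at that depth.

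The cells with Epgn in cluster 9 were its deep cells. The 26 Keap1 cKO cells with the transcript had a median of 14550 UMIs, and the 114 without it had 1982. Cells above 3 times the cluster's median depth numbered 34 and held 83 of the 93 UMIs (115 CPM), and the other 106 cells held 10 UMIs (39.3 CPM). Without those deep cells 10 UMIs were left in the Keap1 cKO library and 0 in the control library, and the bound on the log2 ratio was 0.96. The markers of other cell types that were summed did not all stand higher in cells with Epgn. T cell markers were at 202 CPM in cells with it and 162 CPM in cells without it. Macrophage markers were at 108 CPM in cells with it and 67.8 CPM in cells without it. Fibroblast markers were at 247 CPM in cells with it and 307 CPM in cells without it. Endothelial markers were at 11.2 CPM in cells with it and 20.7 CPM in cells without it. Erythroid markers were at 416 CPM in cells with it and 5423 CPM in cells without it. Keratinocyte markers were at 22072 CPM in cells with it and 29236 CPM in cells without it. Cornified markers were at 19994 CPM in cells with it and 32562 CPM in cells without it. None of these differences was tested.

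Outside cluster 9, Epgn was seen in cluster 4, which was led by the basal keratinocyte genes Col17a1, Trp63, Krt5 and Krt14. It had 13 UMIs there in 5 of 93 Keap1 cKO cells and 0 UMIs in 313 control cells. With 3 counts put in place of the control's 0 over the whole cluster, Epgn was at least 10.8-fold higher, on fewer than 20 UMIs. Cluster 13, led by the suprabasal genes Mt4, Krtdap, Krt4 and Krt13, had 6 UMIs in a single Keap1 cKO cell and 1 UMI in the control library. Fibroblast, endothelial, myeloid and T cell clusters each had between 0 and 3 Epgn UMIs in either library.

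Ereg, which encodes epiregulin, had 53 UMIs (7.11 CPM) in Keap1 cKO epithelial cells and 8 UMIs (0.581 CPM) in control epithelial cells, a log2 ratio of 3.61 (2.53 to 4.90). In cluster 9 it had 29 UMIs (29.7 CPM) in the Keap1 cKO library and 2 UMIs (4.51 CPM) in the control library, a log2 ratio of 2.72 (0.74 to 5.83). A single cell held 15 of the 29. Without the top cell of each library the log2 ratio was 2.38 in cluster 9 and 3.81 in all epithelial cells. Without cells above 3 times their cluster's median depth no ratio was formed for Ereg in cluster 9. Under that choice the log2 ratio in all epithelial cells was 3.75 on 31 UMIs. Ereg differed from Epgn in its amount in fibroblasts of both libraries. In fibroblast cluster 1 Ereg had 36 Keap1 cKO UMIs and 24 control UMIs, and Epgn had 2 Keap1 cKO UMIs and 1 control UMI.

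Areg, which encodes amphiregulin, had 116 UMIs (15.6 CPM) in Keap1 cKO epithelial cells and 26 UMIs (1.89 CPM) in control epithelial cells, a log2 ratio of 3.04 (2.42 to 3.72). In basal cluster 4 it had 53 UMIs (20.3 CPM, interval 15.2 to 26.5) in 9 of 93 Keap1 cKO cells and 0 UMIs in 313 control cells, where a count of 0 allows up to 0.462 CPM. It was therefore at least 43.9-fold higher in that cluster, with the same 3 counts in place of 0. The cell with most Areg held 19 of the 53 UMIs, and without it the bound on the log2 ratio was 4.85, against 5.46 with it.

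Areg in cluster 9 had 20 UMIs in the Keap1 cKO library (20.5 CPM) and 2 UMIs in the control library (4.51 CPM), a log2 ratio of 2.18 (0.14 to 5.33). Without cells above 3 times the cluster's median depth 5 Areg UMIs were left over both libraries, with a log2 ratio of 1.22. Cluster 13 had 7 UMIs in 7 Keap1 cKO cells and 0 UMIs in the control library. Epithelial clusters 10 and 15 together held 5.47% of the 384 Areg UMIs of the Keap1 cKO library, beside 5.21% in cluster 9. Only 3 of these UMIs lay in cluster 10, and the others lay in cluster 15. Cluster 15 was led by the cell division genes Cdc20, Cenpf and Ccnb1. It held 7 Keap1 cKO cells and 75 control cells, too few for a ratio. Of the 26 control epithelial UMIs, 23 lay in cluster 14, a cluster of 40 Keap1 cKO cells and 42 control cells led by Psca, Reg3g, Ltf and Krt7 that carries markers of secretory epithelium. Areg was at 14.2 CPM in Keap1 cKO cells of cluster 14 and 34.9 CPM in control cells of it, and 13 of the 23 control UMIs came from 1 cell. Without cluster 14 the log2 ratio of Areg in epithelial cells was 6.11.

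Cells with at least 1 UMI of Epgn, Ereg or Areg made up 66 of 422 epithelial cells in the Keap1 cKO library (15.6%, interval 12.3% to 19.5%) and 15 of 848 in the control library (1.77%, interval 0.993% to 2.90%). In cluster 9 these cells were 35 of 140 (25.0%) in the Keap1 cKO library and 3 of 114 in the control library. Cells with at least 2 of the 3 genes numbered 12 in the Keap1 cKO library and 2 in the control library of that cluster. The median depth of cluster 9 was 2456.5 UMIs in the Keap1 cKO library and 1441.5 UMIs in the control library. Cells holding both Areg and Egfr, a ligand and its receptor, were 17 of 422 in the Keap1 cKO epithelium, at a median of 49557 UMIs, and 5 of 848 in the control epithelium, at a median of 34855 UMIs.

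Markers of other cell types moved with the genotype in the same clusters, and their part in the 3 ligands' values was not tested. All 6 T cell markers had UMIs in both libraries, and summed to 87.5 CPM in Keap1 cKO epithelial cells and 10.5 CPM in control epithelial cells. In T cell cluster 3 itself they summed to 5435 CPM in the Keap1 cKO library and 4310 CPM in the control library. In cluster 9 the T cell markers summed to 180 CPM in the Keap1 cKO library and 4.51 CPM in the control library, with Cd3e, Cd3d, Cd3g and Trac at 0 in the control library. When epithelial cells with any UMI of another class's marker were left out, 287 of 422 Keap1 cKO cells and 691 of 848 control cells dropped out. Epgn, Ereg, Areg and Btc then each had under 20 UMIs over both libraries, so none was counted as higher, and Areg, with 6 UMIs, had a log2 ratio of -0.061. The 9 keratinocyte markers of cluster 9 summed to 25968 CPM in the Keap1 cKO library and 79583 CPM in the control library. Its 7 cornified markers summed to 26829 CPM in the Keap1 cKO library and 98512 CPM in the control library, so the cells that share this cluster number differed between libraries in their keratin content too. S100a8 and S100a9, which keratinocytes and neutrophils both make, summed to 12992 CPM in Keap1 cKO epithelial cells and 25.0 CPM in control epithelial cells. The neutrophil genes Retnlg, Csf3r and Cxcr2 summed to 2.28 CPM in the Keap1 cKO epithelium and 0.291 CPM in the control epithelium. In cluster 4 the cycling markers Mki67, Top2a and Cdk1 summed to 635 CPM in the Keap1 cKO library and 95.6 CPM in the control library. Over all epithelial cells Mki67 stood at 114 CPM in the Keap1 cKO library and 127 CPM in the control library. The dividing cells of cluster 15 numbered 7 in the Keap1 cKO library and 75 in the control library.

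**Figure D2:**
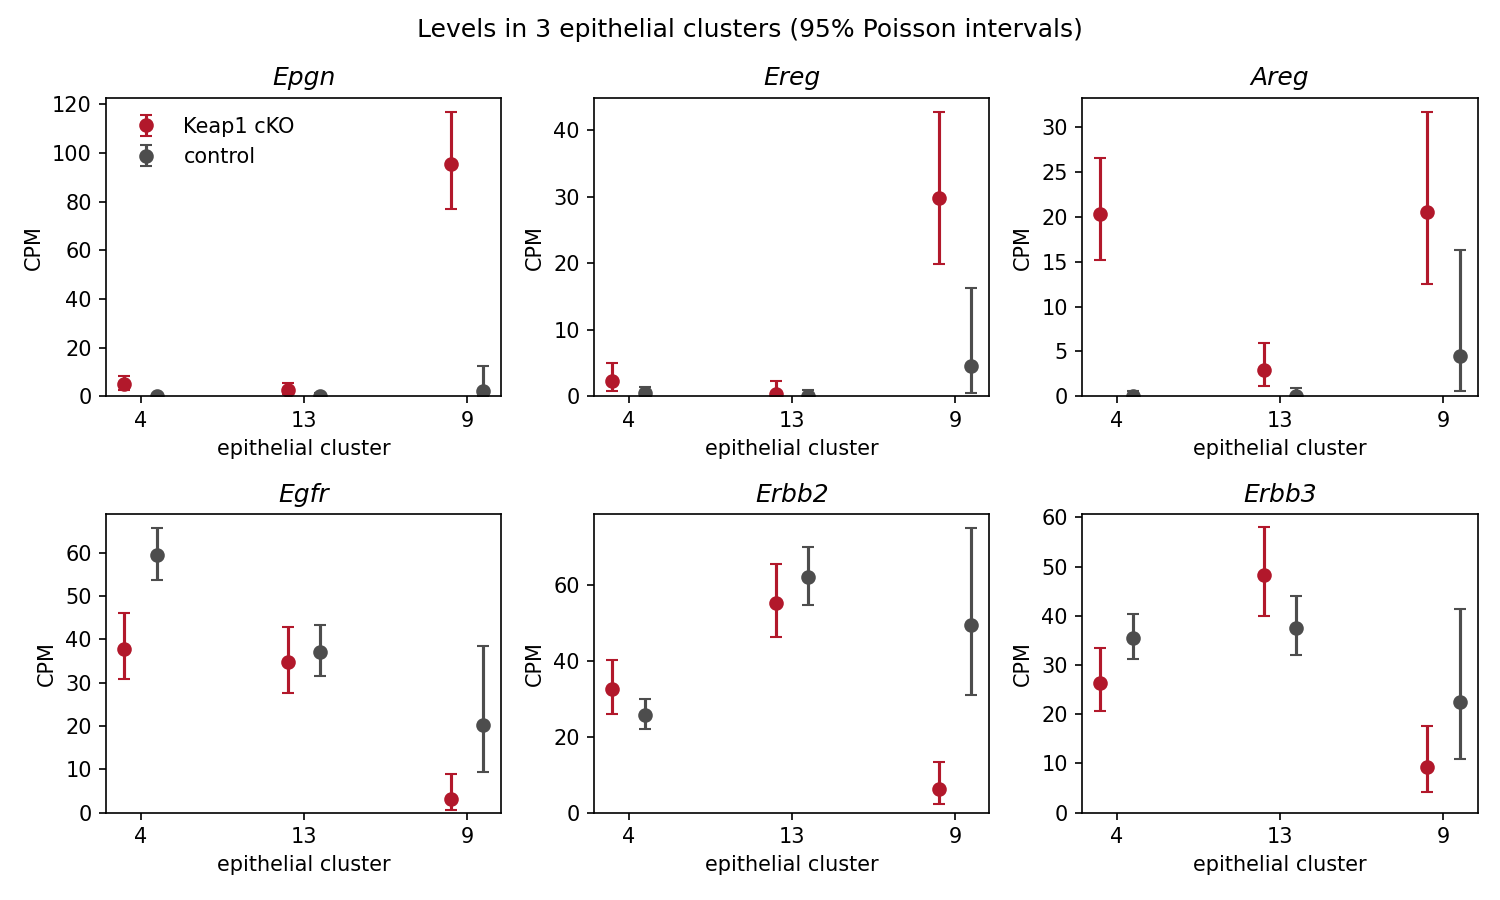
CPM of Epgn, Ereg, Areg, Egfr, Erbb2 and Erbb3 in epithelial clusters 4, 13 and 9 of the Keap1 cKO library (red) and the control library (grey), with 95% Poisson intervals. Epgn reaches 95.3 CPM only in Keap1 cKO cells of cluster 9, Areg is near 20 CPM in Keap1 cKO cells of clusters 4 and 9, and Erbb2 is at 6.15 CPM in Keap1 cKO cells of cluster 9 and 49.6 CPM in control cells of it.

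The 3 ligands that stood highest are neighbours on chromosome 5. On mm10, with the GENCODE vM21 annotation, Epgn spans chr5:91027464-91035215, Ereg spans chr5:91074622-91093646 and Areg spans chr5:91139599-91148432, all on the plus strand. The gaps are 39.4 kb between Epgn and Ereg and 46.0 kb between Ereg and Areg. Btc lies 209 kb beyond Areg on the minus strand, at chr5:91357261-91402994. Mthfd2l, the next gene upstream of Epgn and one that encodes a mitochondrial folate enzyme, had 136 UMIs in Keap1 cKO epithelial cells and 203 in control epithelial cells. The 5′ end of Ereg overlaps the antisense RNA Gm19610, which had 4 UMIs in the Keap1 cKO epithelium and 0 in the control epithelium. Of the members on other chromosomes, 4 are given here: Tgfa at chr6:86195223-86275719, Egfr at chr11:16752203-16918158, Erbb2 at chr11:98412470-98437716, these on the plus strand, and Erbb3 at chr10:128567523-128589652 on the minus strand.

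Sequences upstream of Epgn and Areg are shown because both of these neighbours passed 1.5-fold upward in cluster 9. They come from the RefSeq promoter table on GRCm38.p6, which held 6 of the 9 genes, and end at the base before the first annotated start. Ereg, which lies between them, and Hbegf also passed 1.5-fold upward in cluster 9 but were not among those 6 genes. The Epgn stretch is chr5:91027267-91027463 and the Areg stretch is chr5:91139349-91139598, both read 5′ to 3′ on the plus strand. Capitals mark the motifs found.
Epgn: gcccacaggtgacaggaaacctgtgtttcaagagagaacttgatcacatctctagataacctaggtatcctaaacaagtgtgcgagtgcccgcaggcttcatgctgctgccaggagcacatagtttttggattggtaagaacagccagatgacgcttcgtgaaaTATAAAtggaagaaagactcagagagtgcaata
Areg: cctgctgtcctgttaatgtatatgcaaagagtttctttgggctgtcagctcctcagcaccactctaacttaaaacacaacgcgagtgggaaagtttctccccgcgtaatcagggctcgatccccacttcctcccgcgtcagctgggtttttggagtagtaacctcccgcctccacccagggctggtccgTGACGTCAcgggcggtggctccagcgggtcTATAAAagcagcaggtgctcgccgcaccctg
The letters searched on both strands were TGACNNNGC (the core of the antioxidant response element that NRF2 binds), TGANTCA (AP-1), TGACGTCA (the cyclic AMP response element) and TATAAA (the TATA box). Epgn held TATAAA at -33 from the earlier annotated start. Areg held TGACGTCA at -61 and TATAAA at -31 from its start. The 300-base windows of Tgfa, Btc, Egfr and Erbb2 held none of the 4 motifs. Over all 32851 promoters of that length in the table, 12.4% held the antioxidant response element core, 7.81% the AP-1 letters, 1.79% the cyclic AMP response element and 13.6% TATAAA. A match only describes letters in this window.

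Hbegf, which encodes heparin-binding EGF-like growth factor, was within 1.5-fold over all epithelial cells summed, and differed in different directions between clusters. It had 457 UMIs (61.3 CPM) in Keap1 cKO epithelial cells and 624 UMIs (45.3 CPM) in control epithelial cells, a log2 ratio of 0.44 (0.26 to 0.61). Cluster 14 carried much of it, with 249 CPM (220.0 to 281) in the Keap1 cKO library and 308 CPM (267 to 353) in the control library, the highest level of Hbegf in any cluster of either library. This cluster made up 40 of 422 Keap1 cKO epithelial cells and 42 of 848 control epithelial cells, and without it the log2 ratio was -0.09. Without cells above 3 times their cluster's median depth the epithelial log2 ratio was 0.94 on 857 UMIs, past 1.5-fold. The 6 macrophage markers in cluster 14 summed to 2574 CPM in the Keap1 cKO library and 161 CPM in the control library, and their part was not tested.

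In basal cluster 4 Hbegf stood at 29.9 CPM in Keap1 cKO cells and 25.1 CPM in control cells, a log2 ratio of 0.25 (-0.16 to 0.65). In suprabasal cluster 13 it stood at 33.1 CPM in Keap1 cKO cells and 50.7 CPM in control cells, a log2 ratio of -0.62 (-1.01 to -0.24). Of clusters 4, 13 and 9, cluster 13 was the one in which Hbegf was lower past 1.5-fold, and 24 of the 80 Keap1 cKO UMIs there came from 1 cell. Without the deepest cell of each library the log2 ratio was -0.58, just within 1.5-fold. In cluster 9 it stood at 33.8 CPM in the Keap1 cKO library and 20.3 CPM in the control library, with an interval that spans 0 (log2 ratio 0.74, -0.36 to 1.99).

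Tgfa, which encodes transforming growth factor alpha, stood at 11.9 CPM in Keap1 cKO epithelial cells and 8.64 CPM in control epithelial cells, a log2 ratio of 0.47 (0.05 to 0.87). In cluster 4 it was at 13.01 CPM in Keap1 cKO cells and 8.16 CPM in control cells, a log2 ratio of 0.67 (0.01 to 1.32), which became -0.045 when the CPM of single cells were averaged. In cluster 13 the log2 ratio was -0.28 (-1.15 to 0.54). Of clusters 4, 13 and 8, Tgfa passed 1.5-fold in cluster 4 alone, and there neither under that averaging nor without the top cell of each library (0.53). In cluster 8 the log2 ratio was 0.98 under that averaging and 0.85 without the top cell of each library, both past 1.5-fold. Over all epithelial cells it was 0.95 under that averaging and 1.02 with epithelial clusters weighted equally.

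Btc, which encodes betacellulin, stood at 6.31 CPM in Keap1 cKO epithelial cells and 3.49 CPM in control epithelial cells, a log2 ratio of 0.85 (0.24 to 1.47). Cluster 14 held 29 of its 47 Keap1 cKO epithelial UMIs and 29 of its 48 control epithelial UMIs. Its level within cluster 14 was 27.4 CPM (18.3 to 39.3) in Keap1 cKO cells and 43.9 CPM (29.4 to 63.1) in control cells. When the epithelial clusters with at least 50 cells per library were weighted equally, which leaves cluster 14 out, the log2 ratio was -0.40. With only cluster 14 left out and UMIs summed as before, it was 0.96 on 37 UMIs, still past 1.5-fold. Without cells above 3 times their cluster's median depth it was 2.23. It was 0.58 when the CPM of single cells were averaged and 0.49 with cells thinned to 1000 UMIs, both within 1.5-fold. Its levels in fibroblast clusters 1 and 5, given with the other stromal values, were above those in clusters 4 and 13 in each library.

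Among the receptors, Egfr was lower in basal cells and close to the control in suprabasal cells. Egfr, the receptor for all 6 ligands, had 224 UMIs (30.1 CPM) in Keap1 cKO epithelial cells and 661 UMIs (48.0 CPM) in control epithelial cells, a log2 ratio of -0.68 (-0.90 to -0.46). In basal cluster 4 it was at 37.9 CPM (30.8 to 46.1) in Keap1 cKO cells and 59.4 CPM (53.6 to 65.7) in control cells, a log2 ratio of -0.65 (-0.98 to -0.33). In cluster 13 it was at 34.7 CPM in Keap1 cKO cells and 37.1 CPM in control cells, a log2 ratio of -0.10 (-0.50 to 0.29). The basal intervals did not overlap and the suprabasal ones did. Fibroblast markers summed to 595 CPM in the Keap1 cKO library and 555 CPM in the control library of cluster 4, and to 1449.8 CPM in the Keap1 cKO library and 280.0 CPM in the control library of cluster 13, and their part was not tested. Cluster 9 held only 3 Keap1 cKO UMIs and 9 control UMIs. Across the alternatives of processing the epithelial log2 ratio of Egfr ran from -1.97 to -0.63, always below 0.

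Erbb2 and Erbb3 were both within 1.5-fold of the control over all epithelial cells. When cells with a UMI of another class's marker were left out, both passed 1.5-fold downward, with log2 ratios of -0.65 for Erbb2 and -1.38 for Erbb3. Erbb2, the receptor that pairs with the others, stood at 43.1 CPM in Keap1 cKO epithelial cells and 38.1 CPM in control epithelial cells, a log2 ratio of 0.18 (-0.03 to 0.38). In cluster 4 it was at 32.5 CPM in Keap1 cKO cells and 25.9 CPM in control cells, and in cluster 13 at 55.4 CPM in Keap1 cKO cells and 62.1 CPM in control cells. Both log2 ratios, 0.33 and -0.17, had intervals that span 0. In cluster 9 Erbb2 had 6 UMIs (6.15 CPM) in the Keap1 cKO library and 22 UMIs (49.6 CPM) in the control library, a log2 ratio of -3.01 (-4.60 to -1.67). One control cell, the deepest of its cluster with 89798 UMIs and 20.2% of the cluster's total, is part of that value, and without the deepest cells the log2 ratio was -2.59.

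Erbb3, the receptor with a weak kinase, stood at 43.3 CPM in Keap1 cKO epithelial cells and 40.1 CPM in control epithelial cells, a log2 ratio of 0.11 (-0.09 to 0.31). It was at 26.4 CPM in Keap1 cKO cells of cluster 4 and 35.6 CPM in control cells of it, a log2 ratio of -0.43 (-0.84 to -0.04). It was at 48.3 CPM in Keap1 cKO cells of cluster 13 and 37.6 CPM in control cells of it, a log2 ratio of 0.36 (0.01 to 0.72). Cluster 14 had the highest level of Erbb3, 111 CPM (92.2 to 133) in the Keap1 cKO library and 127 CPM (102 to 158) in the control library, and these intervals overlap.

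Counts by cluster put the members beside all genes of the cluster. Of the 5 members with at least 20 UMIs in cluster 9, 4 were higher (Epgn, Ereg, Areg and Hbegf), where 19.8% of all genes were, and 1 was lower (Erbb2), where 30.2% were. In cluster 4, 2 of 6 were higher (Areg and Tgfa), where 18.9% of all genes were, and 1 was lower (Egfr), where 18.2% were. In cluster 13, 0 of 5 were higher, where 14.3% of all genes were, and 1 was lower (Hbegf), where 15.4% were. These are counts over few genes, and nothing particular to the family is read from them.

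**Figure D3:**
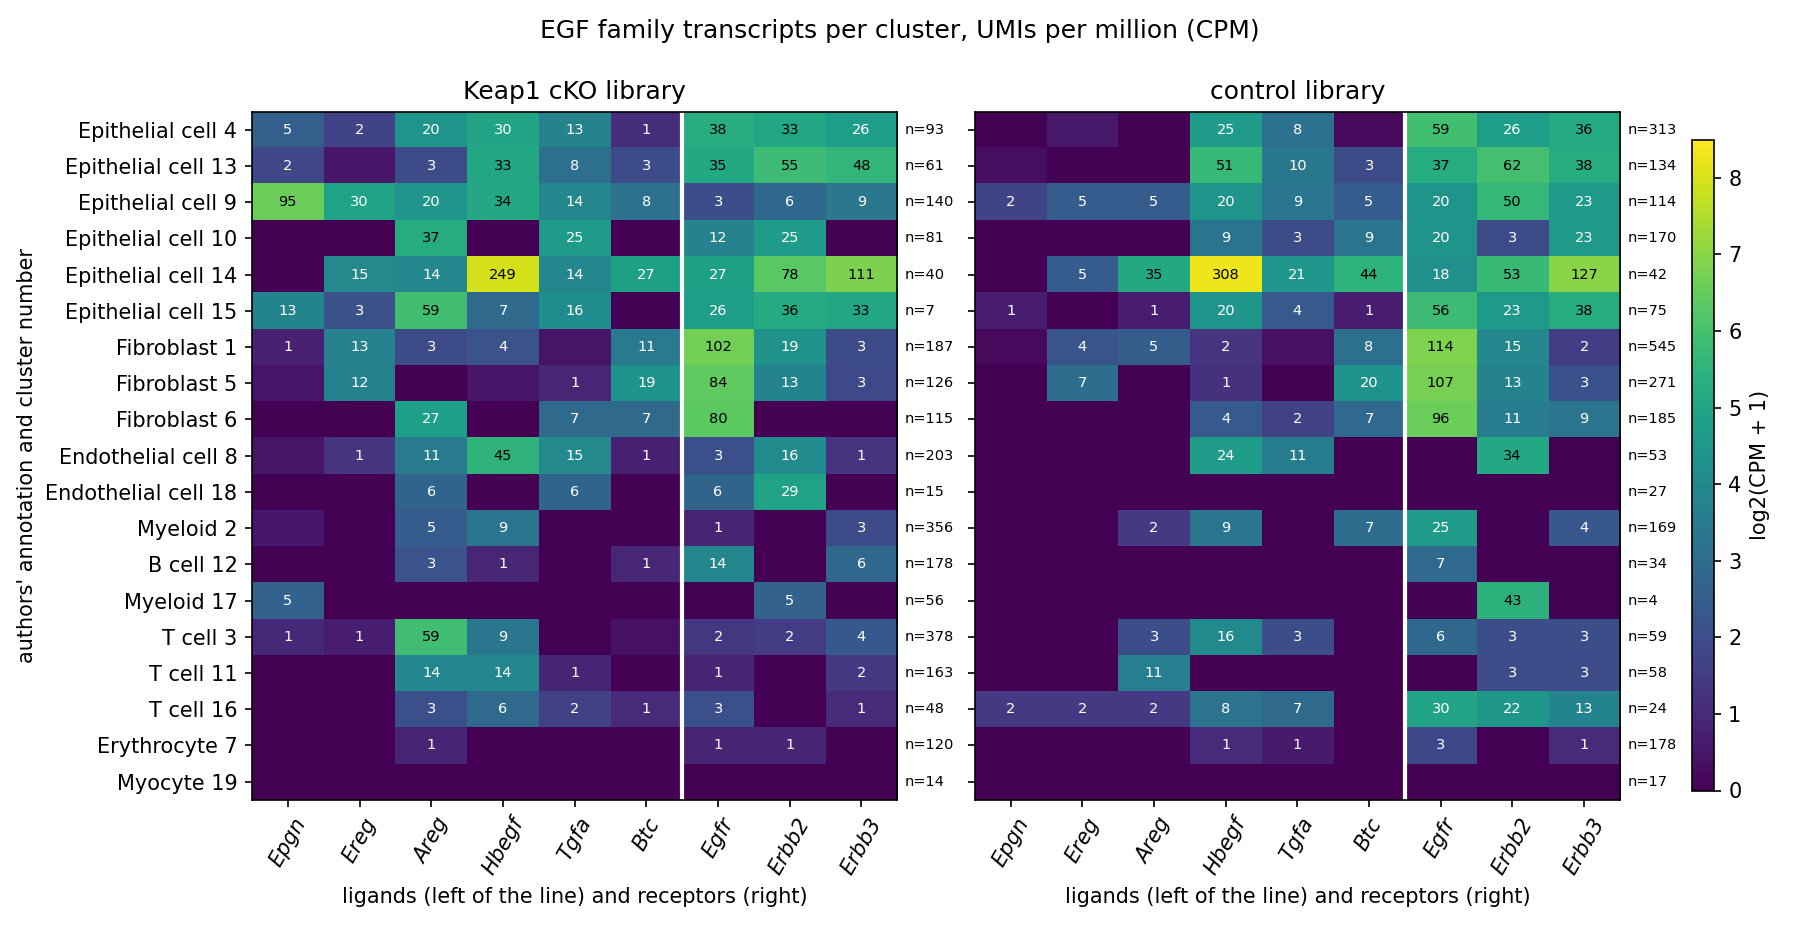
CPM of the 9 genes in each of the 19 clusters, Keap1 cKO library left and control library right, with the colour on a log2(CPM + 1) scale, the number in a box the CPM where it is at least 0.5, and n the number of cells. Hbegf and Erbb3 are highest in cluster 14 of both libraries, Egfr is highest in fibroblast clusters 1, 5 and 6, and Areg reaches 59 CPM in T cell cluster 3 of the Keap1 cKO library.

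Outside the epithelium, Areg stood above the control in T cell cluster 3, which was led by Cd163l1, Il17a and Trdc, genes of gamma delta T cells that make interleukin 17. Areg had 189 UMIs (58.7 CPM, interval 50.6 to 67.7) there in the Keap1 cKO library and 1 UMI (3.12 CPM, interval 0.0791 to 17.4) in the control library, a log2 ratio of 4.23 (1.74 to 9.54). The UMIs came from 45 of 378 Keap1 cKO cells and 1 of 59 control cells. At 1000 UMIs per cell they came from 12 of 377 Keap1 cKO cells and 0 of 59 control cells, and 0 of 59 allows up to 5.08% of cells with a UMI at that depth. Without the top cell of each library, which in the control is the only cell with Areg, the log2 ratio was at least 2.40. This cluster held 49.2% of the Areg UMIs of the Keap1 cKO library.

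Areg in the other T cells of cluster 11, which was led by Ccl5, Nkg7 and Trac, was at 14.4 CPM in Keap1 cKO cells and 11.5 CPM in control cells, a log2 ratio of 0.32 (-1.29 to 2.35). Hbegf in cluster 3 was at 9.01 CPM in Keap1 cKO cells and 15.6 CPM in control cells, with 5 control UMIs, a log2 ratio of -0.79 (-2.18 to 0.93), which was -0.24 without the top cell of each library. Of the 2 genes with enough UMIs in cluster 3, 1 was higher, where 21.6% of all genes were, and 1 was lower, where 14.3% were. Erythrocytes of cluster 7 had Areg in 1 of 120 Keap1 cKO cells and 0 of 178 control cells.

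Fibroblasts held most of the Egfr in both libraries. Egfr was at 102 CPM (90.6 to 114) in Keap1 cKO cells and 114 CPM (106 to 122) in control cells of cluster 1, a log2 ratio of -0.16 (-0.36 to 0.04). It was at 84.1 CPM (72.5 to 96.9) in Keap1 cKO cells and 107 CPM (97.1 to 118) in control cells of cluster 5, a log2 ratio of -0.35 (-0.61 to -0.10). Cluster 6, shallow cells annotated as fibroblasts, was at 80.4 CPM in the Keap1 cKO library and 95.6 CPM in the control library, with overlapping intervals. In each library these 3 clusters stood above basal cluster 4, although the interval of cluster 6 overlapped that of cluster 4 in the Keap1 cKO library. Clusters 1 and 5 overlapped each other in both libraries.

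Ereg and Btc each had over 20 UMIs in both fibroblast clusters 1 and 5 of each library. In cluster 1 Ereg had 36 UMIs (12.6 CPM) in Keap1 cKO cells and 24 UMIs (3.62 CPM) in control cells, a log2 ratio of 1.80 (1.02 to 2.61), with 12 of the 36 in 1 cell. In cluster 5 Ereg was at 12.4 CPM in Keap1 cKO cells and 7.40 CPM in control cells, a log2 ratio of 0.74 (-0.06 to 1.55). Btc in cluster 5 was at 19.02 CPM in Keap1 cKO cells and 19.5 CPM in control cells, a log2 ratio of -0.04 (-0.62 to 0.52). Btc in cluster 1 was at 10.5 CPM in Keap1 cKO cells and 7.84 CPM in control cells, a log2 ratio of 0.42 (-0.28 to 1.10).

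In cluster 1, 3 of 7 genes were higher (Ereg, Hbegf and Erbb3), where 13.9% of all genes were, and 1 was lower (Areg), where 16.1% were. Hbegf and Erbb3 passed on 20 UMIs each over both libraries with intervals that span 0, and without the top cell of each library their log2 ratios were -0.20 for Hbegf and 0.35 for Erbb3, within 1.5-fold. The lower Areg rested on 1 control cell that held 30 of the 31 control UMIs, and without the top cell of each library the log2 ratio was 1.22. In cluster 5, 1 of 4 was higher (Ereg), where 13.2% of all genes were, and 0 were lower, where 18.2% were.

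Endothelial cells of cluster 8 were a source of Hbegf and Tgfa. Hbegf was at 44.7 CPM (37.2 to 53.2) in Keap1 cKO cells and 24.4 CPM (12.998 to 41.7) in control cells, a log2 ratio of 0.87 (0.05 to 1.82). Tgfa was at 14.9 CPM in Keap1 cKO cells and 11.3 CPM in control cells, a log2 ratio of 0.40 (-0.84 to 1.93). The cluster numbered 203 Keap1 cKO cells and 53 control cells, so it supplied 30.2% of the Tgfa UMIs of the Keap1 cKO library and 4.48% of those of the control library. Erbb2 was at 16.3 CPM in Keap1 cKO cells and 33.8 CPM in control cells, a log2 ratio of -1.05 (-1.87 to -0.18). Areg had 30 UMIs in the Keap1 cKO library, 22 of them in 1 cell, and 0 in the control library. Of the 4 genes with enough UMIs, 2 were higher (Areg and Hbegf), where 26.1% of all genes were, and 1 was lower (Erbb2), where 9.84% were. When the CPM of single cells were averaged, neither Areg (a bound of 0.06) nor Erbb2 (-0.34) passed 1.5-fold. T cell markers in this cluster summed to 561 CPM in the Keap1 cKO library and 73.2 CPM in the control library, and fibroblast markers to 1113 CPM in the Keap1 cKO library and 413 CPM in the control library, and their part was not tested.

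Myeloid cells of cluster 2, led by macrophage genes such as F13a1, C1qa and Mrc1, had Egfr almost only in the control library. It had 2 UMIs (0.826 CPM) in 356 Keap1 cKO cells and 44 UMIs (24.8 CPM) in 38 of 169 control cells, a log2 ratio of -4.91 (-8.00 to -2.97). Of the 2 genes with enough UMIs there, 1 was lower (Egfr), where 10.9% of all genes were, and 0 were higher, where 15.8% were. Fibroblast markers summed to 420 CPM in the control cells with Egfr and 614 CPM in those without it, where 1 cell held 338 marker UMIs. Without the top cell of each set they summed to 393 CPM in the control cells with Egfr and 358 CPM in those without it, and their part was not tested. Btc had 0 Keap1 cKO UMIs and 13 control UMIs in this cluster.

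**Figure D4:**
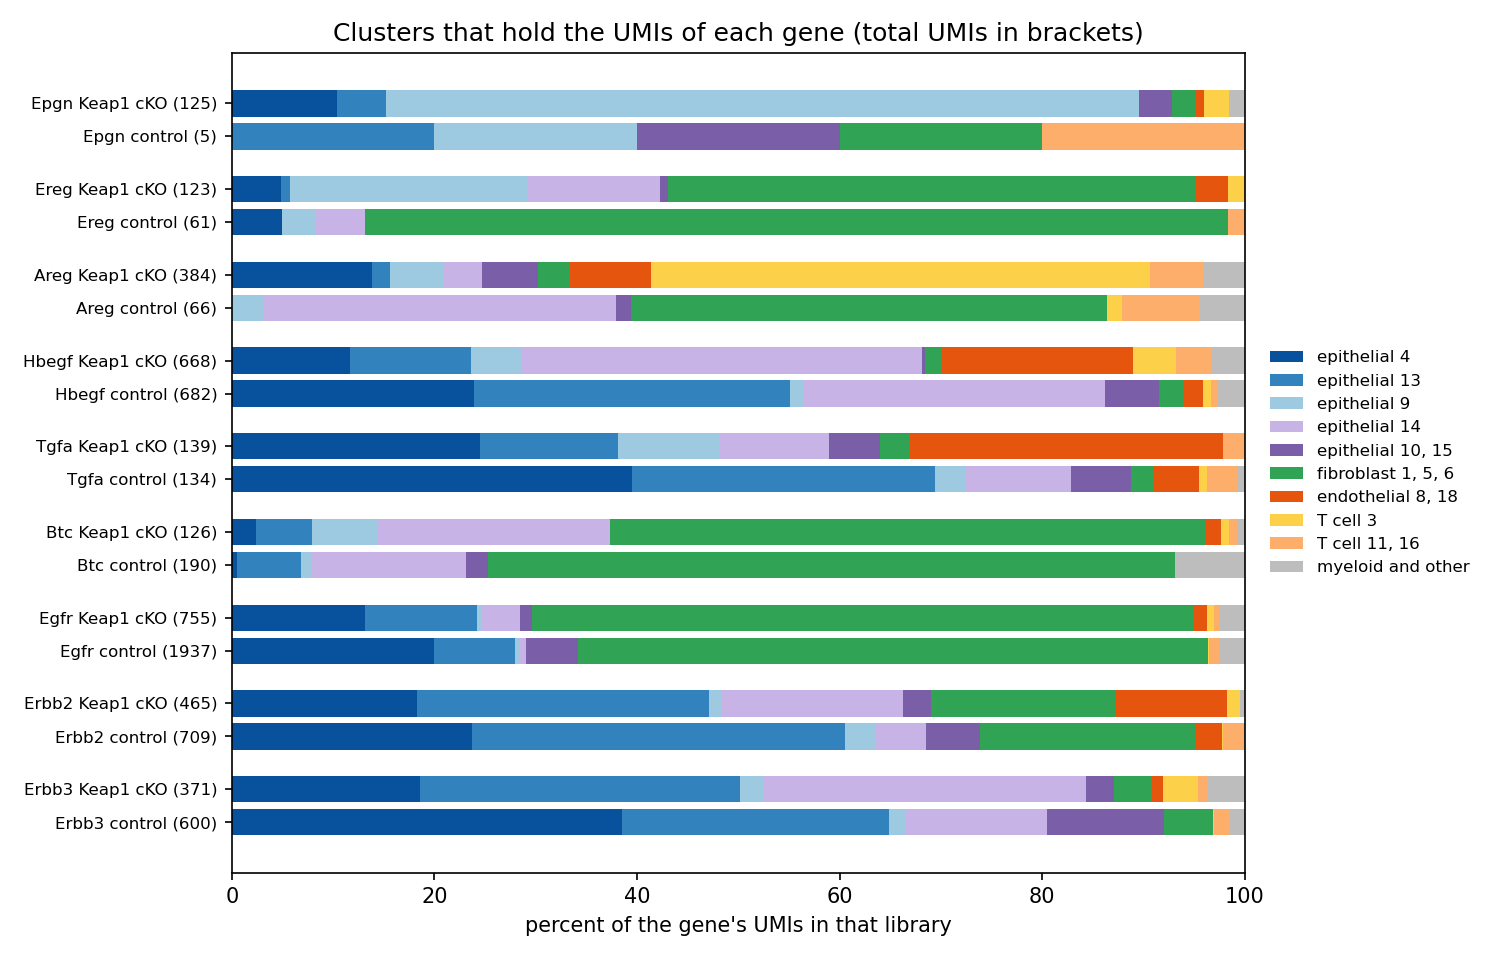
Percent of each gene's UMIs in a library that came from each cluster or group of clusters, with the total UMIs of the gene in brackets and the Keap1 cKO bar above the control bar. Cluster 9 holds 74.4% of the Epgn UMIs of the Keap1 cKO library, T cell cluster 3 holds 49.2% of its Areg UMIs, and fibroblasts hold most of the Egfr UMIs in both libraries.

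Over all non-epithelial cells 3 of 8 genes were higher (Areg, Hbegf and Tgfa), where 27.8% of all genes were, and 2 were lower (Btc and Egfr), where 14.8% were. These sums follow the mix of cells as well as levels within a cell type: fibroblast cluster 1 held 187 Keap1 cKO cells and 545 control cells, and T cell cluster 3 held 378 Keap1 cKO cells and 59 control cells. The number of cells per cluster and the level within it are therefore given apart above.

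Genes with the most similar pattern were sought for the 4 members with at least 500 UMIs, by Pearson's r of log2(CPM + 10) over 24 pairs of cluster and library among 9498 genes. The pairs share libraries and depths, so r is a description. For Egfr they were Rgma (r = 0.948), Rab34 (0.930) and Ptgfrn (0.927). For Erbb3 they were Rapgefl1 (0.937), Fam83f (0.935) and Sh3rf2 (0.930). For Erbb2 they were Ppm1l (0.863), Cyb561 (0.844) and Emp2 (0.843), and for Hbegf they were Sh3bgrl2 (0.850), Casz1 (0.840) and Sdr39u1 (0.814). Epgn, Ereg, Areg, Tgfa and Btc had between 130 and 450 UMIs and were not compared.

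Other genes of the pathway were followed in epithelial cells through 5 lists. The 21 adaptors and kinases that carry the signal from the receptors stayed near the control, and the negative regulators were spread widely to both sides. The median log2 ratio was 0.11 over the adaptors and kinases, -0.35 over the negative regulators, 0.30 over the genes of ligand release and -0.03 over ERK-responsive transcripts, beside -0.02 over all genes. Past 1.5-fold, 17.5% of all genes were higher and 15.8% lower.

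Of the 21 adaptors and kinases, 1 was higher and 0 were lower. The higher one was Plcg1, a phospholipase that EGFR activates, at 15.7 CPM in Keap1 cKO cells and 10.2 CPM in control cells (log2 ratio 0.62). Pik3r1, a regulatory subunit of PI3 kinase, had -0.51, and the abundant Hras and Map2k2 had -0.22 and 0.09. Of the 7 genes of ligand release, 1 was higher and 0 were lower. This was Rhbdf2, an inactive rhomboid that escorts the sheddase ADAM17, at 16.8 CPM in Keap1 cKO cells and 7.92 CPM in control cells (log2 ratio 1.08). The sheddases themselves, Adam10 and Adam17, had log2 ratios of 0.50 and 0.48.

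Of the 17 negative regulators with enough UMIs, 5 were higher (Lrig1, Dusp4, Dusp5, Dusp6 and Ptprj) and 5 were lower (Lrig3, Cblb, Spry1, Spred2 and Socs3). Ptprj, a receptor-type phosphatase, was at 14.1 CPM in Keap1 cKO cells and 5.01 CPM in control cells (log2 ratio 1.49). Spred2, an inhibitor of RAS signalling, was at 15.7 CPM in Keap1 cKO cells and 36.7 CPM in control cells (log2 ratio -1.22). Lrig3 had -0.82 and the phosphatase Ptpn1 had 0.33. The 3 DUSP phosphatases on the list that were higher are ones that ERK signalling is known to induce, and Dusp4 rested on 21 Keap1 cKO UMIs and 14 control UMIs. Spry1 and Spred2 lay on the other side, and Errfi1 was within 1.5-fold (log2 ratio -0.44). The activity of ERK was not tested.

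Of the 13 ERK-responsive transcripts with enough UMIs, 4 were higher (Fosl1, Phlda1, Etv4 and Vegfa) and 1 was lower (Ccnd1). Phlda1 was at 96.2 CPM in Keap1 cKO cells and 43.4 CPM in control cells (log2 ratio 1.15). Ccnd1, which encodes cyclin D1, was at 89.1 CPM in Keap1 cKO cells and 202 CPM in control cells (log2 ratio -1.18). The abundant immediate early genes Fos and Ier2 had -0.10 and -0.17. Of the 3 other family members with enough UMIs, Nrg1, a ligand of ERBB3, was higher at 21.7 CPM in Keap1 cKO cells and 12.1 CPM in control cells (log2 ratio 0.85). Nrg2, another neuregulin, was lower at 3.35 CPM in Keap1 cKO cells and 10.5 CPM in control cells (log2 ratio -1.64), and Egf had 8 Keap1 cKO UMIs and 31 control UMIs. Nrg4 had 1 Keap1 cKO UMI and 5 control UMIs, too few to count. Erbb4 and Nrg3 were not among the genes of the expression table and could not be analysed.

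**Figure D5:**
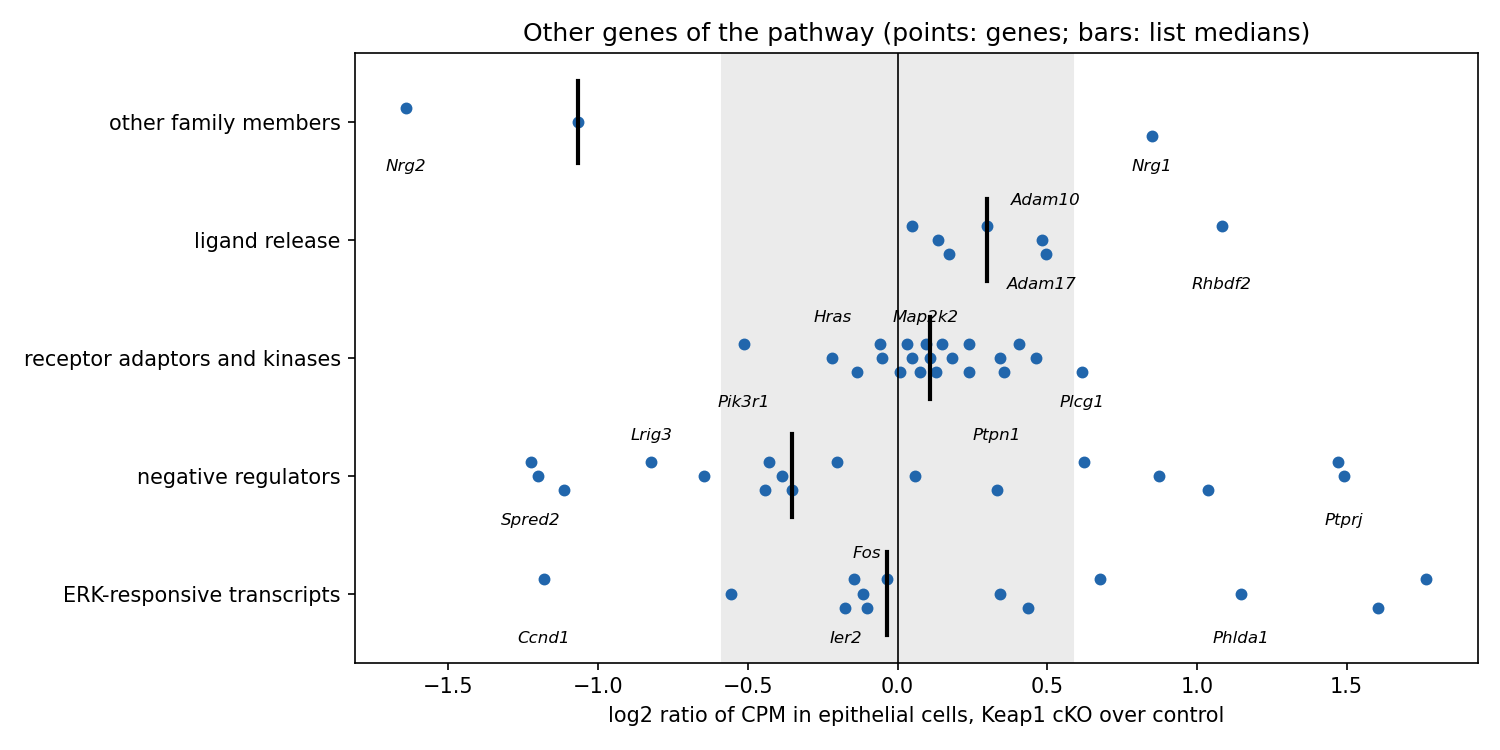
Log2 ratio of CPM in epithelial cells, Keap1 cKO over control, for the genes of 5 pathway lists, with each point a gene with at least 20 UMIs over both libraries, each black bar the list's median, and the shaded band 1.5-fold either way. The adaptors and kinases lie close to 0, and the negative regulators reach 1.49 on one side and -1.22 on the other.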

How the data were processed

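Cells of 1 Keap1 cKO library and 1 control library were profiled with 10x Genomics 3′ chemistry, per the labels' protocols. The submitters' processing notes name the mm10 build, Seurat 4.0.2, Cell Ranger 6.0.1 and R 4.1.1. The sources used here give no gene annotation, cell filter or doublet removal. The authors deposited natural log values of each cell scaled to a total of 10000 plus 1, as read from the values, and a table of each cell's library, cell type and cluster number, which was used as given. Each cell's smallest step gave back its UMI counts: 100% of 13321499 positive values were whole within 0.01 UMIs. No doublets were removed.

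UMIs were summed per cluster and library and given as CPM, with exact Poisson, conditional binomial and Clopper-Pearson intervals at 95%. Where 1 library had 0 UMIs of a gene, 3 counts took the place of 0 and the ratio is a bound. Ratios were taken with at least 50 cells per library. For shares, cells were thinned to 1000 UMIs. The intervals leave out the spread between cells and between mice. The steps were tested on simulated data.

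The 9 genes, the 5 pathway lists and 18 marker lists were chosen with earlier results of these data known. Of each pathway list, the 2 genes with most UMIs and the 2 with the largest difference at 100 UMIs or more are named, and others are named as parts of small counts. Python 3.11.15, numpy 2.4.6, scipy 1.17.1 and pandas 2.3.3 were used.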

Additional observations from a re-analysis of the deposited data

Results flagged for a closer look

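The difference between libraries had opposite signs in different clusters for 2 genes, with counting intervals on opposite sides of 0. The log2 ratio of Hbegf, Keap1 cKO over control, was 0.87 in endothelial cluster 8 and -0.62 in suprabasal cluster 13. That of Erbb3 was 0.36 in cluster 13 and -0.43 in basal cluster 4, and the value in cluster 4 was 0.10 when the CPM of single cells were averaged. With 1 library per genotype neither difference between clusters was tested.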

How the results depend on the processing

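No paired analysis was possible because each genotype had 1 library and the labels give no replicate numbers. Of 108 epithelial log2 ratios recomputed under other choices, 79 stayed within the counting interval of the reported value and 14 changed sign. Of 257 ratios in single clusters, 250 stayed within it and 13 changed sign. Of ratios reported past 1.5-fold, 2 in epithelial cells and 3 in single clusters changed sign, and 4 and 11, these included, were no longer past it. The epithelial log2 ratio of Epgn ran from 2.52 to 7.02 and that of Ereg from 1.49 to 4.91 over these choices. Leaving out cells with a UMI of another class's marker removed 287 of 422 Keap1 cKO cells and 691 of 848 control cells. The count of higher genes was then 0 in place of 4, since Epgn, Ereg, Areg and Btc each kept under 20 UMIs, and that of lower genes 3 in place of 1. Areg, with 6 UMIs left, had -0.061. Thinning to 1000 UMIs left 1 higher gene, with fewer UMIs, and a 2-fold limit left 0 lower. Weighting clusters equally gave -0.40 for Btc and a median of 0.35 for the other family members, which was -1.07. Averaging single cells gave -0.045 for Tgfa in cluster 4 and 0.98 for it in cluster 8. Without the top cell of each library, chosen after seeing the data, cluster 1 gave 1.22 for Areg and -0.20 for Hbegf. Median-of-ratios scaling shifted cluster 9 by -0.32 and epithelial cells by under 0.01 in log2. The number of UMIs limits the precision of every ratio.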

Other observations

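The pathway lists were also followed within single epithelial clusters. In suprabasal cluster 13, 4 of the 7 genes of ligand release were past 1.5-fold upward (Adam17, Adam10, Rhbdf2 and Timp3), where 14.3% of all genes were, and 0 were downward. Adam17 and Adam10 encode the main sheddases of the ligands, Rhbdf2 a partner of ADAM17, and Timp3 an inhibitor of it. The median log2 ratio of the list, Keap1 cKO over control, was 0.63 in cluster 13 and 0.30 in basal cluster 4, where Rhbdf2 was higher and Timp3 lower. Nrg1, the neuregulin that binds ERBB3, was past 1.5-fold upward in clusters 4, 13 and 9. In cluster 13 the fibroblast markers summed to 1449.8 CPM in the Keap1 cKO library and 280.0 CPM in the control library, the T cell markers to 59.1 CPM in the Keap1 cKO library and 4.76 CPM in the control library, and Krt14 stood at 4908 CPM in the Keap1 cKO library and 369 CPM in the control library. Their part in these values was not tested. The list values were read after the data were seen, and none was tested.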
